A study of Mus musculus with 8 samples.

Results

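The open chromatin described here lies at the promoters of protein-coding genes that do not share their start with a coding neighbour on the other strand. Each of the 8 deposited ATAC-Seq peak lists was collapsed to distinct intervals and cut to its 50000 strongest, and the kept intervals of all lists were merged into 73725 consensus regions. A region was taken as a single coding promoter when it came within 1 kb of the transcription start site (TSS) of a protein-coding gene, and genes whose TSS lay within 1 kb of an opposite-strand, head-to-head coding TSS were left out. This gave 13423 regions, 18.2% of all regions. Of 21851 coding genes 1966 were left out as head-to-head, and 11799 of the 19885 single genes (59.3%) had at least 1 region. The distance limit did not fall in a gap, since 252 regions lay in the last 100 bp inside it and 208 in the first 100 bp outside it.

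The chromatin came from hepatocytes of C57BL/6 mice (male C57BL/6J by the study's methods), 10 to 12 weeks old by the sample labels and on normal diet, that were isolated by two-step collagenase perfusion. The 0 h group was undamaged liver, and the other groups were taken 48, 72 and 96 h after partial hepatectomy (PHx), in which lobes of the liver are cut away, with 2 libraries per time point. No group carried a transgene or a drug treatment by the labels. The labels do not say whether the 2 libraries of a time point came from separate animals. The study's text describes biological ATAC-Seq replicates made from separate hepatocyte preparations, each from its own mouse, for undamaged liver and for the earliest time after PHx, and its methods describe hepatocytes from several mice at every time point and statistics over independent replicates. The p-values measure the spread between the libraries used here. The list of 72 h replicate 2 is named in another way than the other 7 and lacks the run name that they share. All 13 hepatocyte marker genes had a single coding promoter in the set, and 7 to 13 of them had an interval within 1 kb of the TSS in each library. Of 12 endothelial markers 4 to 9 had one, of 14 macrophage markers 2 to 5, of 12 stellate cell markers 3 to 8, of 9 cholangiocyte markers 4 to 7 and of 9 lymphocyte markers 0 to 2. No library had an interval at 2 of the endothelial, 8 of the macrophage, 3 of the stellate, 1 of the cholangiocyte and 7 of the lymphocyte markers, while 5, 4, 6, 7 and 0 of them had one in at least 4 libraries. In bulk nuclei, a smaller number of cells of a type and less open chromatin per cell cannot be told apart.

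A promoter is the stretch around a TSS where general transcription factors and RNA polymerase II assemble, and in active or poised genes it is depleted of nucleosomes, which makes it accessible to the Tn5 transposase used in ATAC-Seq. Mammalian promoters fall broadly into CpG-rich ones, typical of housekeeping and developmental genes and bound by factors such as SP1 and ETS proteins, and CpG-poor ones, which more often carry a TATA box and belong to tissue-specific genes. After PHx hepatocytes leave quiescence and divide while the liver goes on making plasma proteins and metabolising nutrients, so both kinds of promoter are in use.

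The sequences directly upstream of 12 of these starts are given because the time course below turns on them. Each is the 150 bp that end at the base before the TSS, 5′ to 3′ on the strand of the gene, on mm10 (GRCm38). Capitals mark matches, on either strand, to GGGCGG (the SP1/KLF box), CCAAT (NFY), CCGGAAG (ETS), TGACGTCA or the shorter TGACGT within it (CRE, the cyclic AMP response element), TGANTCA (AP-1) and the other motifs searched, and overlapping matches run together. The first 3 belong to the genes whose promoter regions had the strongest evidence for a higher rank at 48 h. The 1700016H13Rik stretch lies upstream of another start of the gene and wholly outside the region that was ranked (chr5:103655264-103655970). The Snph stretch also uses a start other than the one nearest its region, and it runs past the end of that region.
Snph (chr2:151632594-151632743, minus strand): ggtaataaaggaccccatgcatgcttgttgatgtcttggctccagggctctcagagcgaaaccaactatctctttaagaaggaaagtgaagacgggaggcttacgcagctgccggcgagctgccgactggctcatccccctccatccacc
1700016H13Rik (chr5:103656011-103656160, minus strand): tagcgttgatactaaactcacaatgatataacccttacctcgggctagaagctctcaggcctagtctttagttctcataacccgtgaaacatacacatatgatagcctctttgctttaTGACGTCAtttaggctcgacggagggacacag
Filip1l (chr16:57549092-57549241, plus strand): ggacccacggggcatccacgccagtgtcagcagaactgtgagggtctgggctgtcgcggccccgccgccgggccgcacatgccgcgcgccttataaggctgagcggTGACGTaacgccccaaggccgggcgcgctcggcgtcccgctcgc
The next 3 belong to the promoters with the strongest evidence for a lower rank at 48 h. Cenpc1 encodes a protein of the inner kinetochore, Bub3 a mitotic checkpoint protein and Dusp22 a dual-specificity phosphatase.
Cenpc1 (chr5:86065584-86065733, minus strand): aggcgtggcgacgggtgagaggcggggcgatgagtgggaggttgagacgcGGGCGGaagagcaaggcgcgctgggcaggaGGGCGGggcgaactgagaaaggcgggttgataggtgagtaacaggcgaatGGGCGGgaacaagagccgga
Bub3 (chr7:131560072-131560221, plus strand): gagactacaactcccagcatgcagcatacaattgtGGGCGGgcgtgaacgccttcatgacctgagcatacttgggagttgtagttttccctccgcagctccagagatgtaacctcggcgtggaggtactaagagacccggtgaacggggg
Dusp22 (chr13:30659849-30659998, plus strand): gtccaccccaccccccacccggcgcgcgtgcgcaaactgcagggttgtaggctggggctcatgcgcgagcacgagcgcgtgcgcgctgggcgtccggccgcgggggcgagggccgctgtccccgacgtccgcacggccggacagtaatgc
The remaining 6 stand for gene functions: Cdc20 (activator of the anaphase-promoting complex), Pcna (the replication clamp), Alb (albumin), Itih1 (a plasma inter-alpha-trypsin inhibitor chain), Hspa5 (the endoplasmic reticulum chaperone BiP) and Nkx2-4 (a developmental homeobox factor).
Cdc20 (chr4:118437353-118437502, minus strand): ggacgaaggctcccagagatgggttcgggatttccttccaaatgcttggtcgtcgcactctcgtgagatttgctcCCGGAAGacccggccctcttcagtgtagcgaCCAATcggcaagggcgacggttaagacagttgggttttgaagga
Pcna (chr2:132253315-132253464, minus strand): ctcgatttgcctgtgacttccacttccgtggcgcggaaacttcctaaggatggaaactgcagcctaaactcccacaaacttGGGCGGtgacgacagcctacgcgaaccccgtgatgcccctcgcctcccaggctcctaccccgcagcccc
Alb (chr5:90460747-90460896, plus strand): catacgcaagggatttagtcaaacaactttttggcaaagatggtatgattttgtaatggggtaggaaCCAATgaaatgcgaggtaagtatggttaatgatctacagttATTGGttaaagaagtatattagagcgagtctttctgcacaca
Itih1 (chr14:30943290-30943439, minus strand): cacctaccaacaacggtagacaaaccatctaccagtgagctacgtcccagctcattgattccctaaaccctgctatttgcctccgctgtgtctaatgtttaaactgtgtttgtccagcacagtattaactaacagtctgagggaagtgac
Hspa5 (chr2:34771820-34771969, plus strand): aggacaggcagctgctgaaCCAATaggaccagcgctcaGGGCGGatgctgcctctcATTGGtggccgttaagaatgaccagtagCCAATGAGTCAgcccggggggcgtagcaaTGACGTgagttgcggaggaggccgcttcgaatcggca
Nkx2-4 (chr2:147085446-147085595, minus strand): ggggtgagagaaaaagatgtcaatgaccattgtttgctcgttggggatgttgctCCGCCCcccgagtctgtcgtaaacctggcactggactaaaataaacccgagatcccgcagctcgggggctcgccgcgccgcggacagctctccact
The Cenpc1 stretch was 66.7% G and C, held 16 CpG dinucleotides and matched the SP1/KLF box 3 times. The Alb stretch was 36.7% G and C, held 3 CpG dinucleotides and matched CCAAT 2 times. The Hspa5 stretch held 6 matches, 3 of them to CCAAT, and the Snph, Dusp22 and Itih1 stretches matched none of the motifs searched. A match is a description of these letters and not a binding site.

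Single coding promoters were wide, common to the libraries and centred on the start. Their median width was 1037 bp against 587 bp for all other regions, and 83.7% of them covered an annotated TSS. They were among the kept intervals of all 8 libraries in 69.9% of cases against 31.7% of other regions, and in 1 library only in 6.89% against 18.5%. An interval of the full lists overlapped 12134 of the 13423 regions in every library. For each gene the strongest region was used, and its summit lay a median of 7 bp upstream of the nearest TSS of the gene, with 71.4% of summits within 200 bp. The histogram of summit positions shows a narrow peak at the start with a lower shoulder downstream, and it leaves out 552 genes (4.68%) whose summit lay farther out, 270 of them upstream and 282 downstream.

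**Figure D1:**
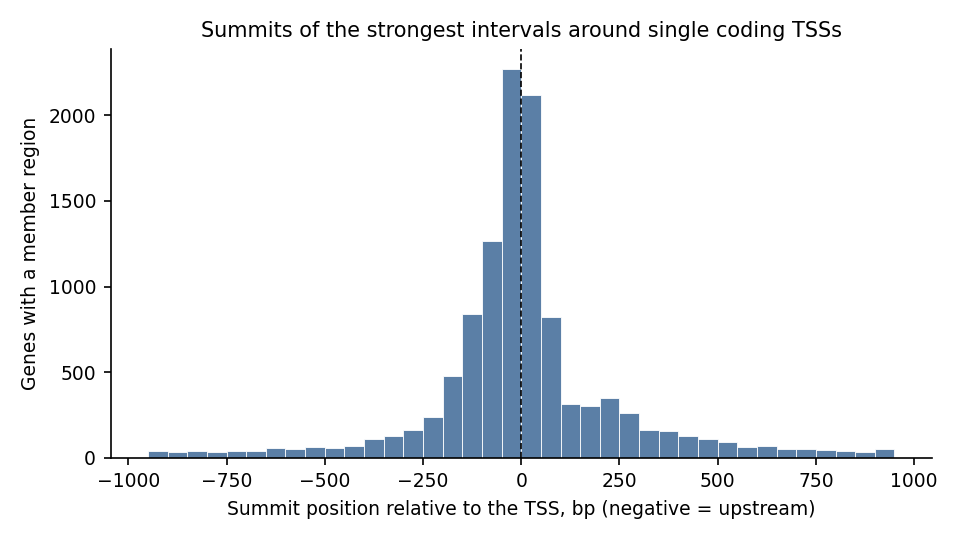
Position of the strongest summit of each gene's promoter region relative to its TSS, in bp along the gene (x axis, 50 bp bins), against the number of genes (y axis). The 2 bins next to the TSS hold 2272 and 2121 genes, and a lower shoulder of 352 genes lies 200 to 250 bp downstream. The 552 summits more than 950 bp away are not drawn.

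The sequence around the start differed between single genes with a region and those with none. The starts were chosen by different rules. A gene with a region was scored at the TSS nearest the summit of its strongest region. A gene without one was scored at its most upstream annotated TSS. The part of this choice in the shares below was not tested. A promoter was called CpG-rich when the 300 bp from 250 bp upstream to 50 bp downstream of the TSS held at least 50% G and C and an observed to expected CpG ratio of at least 0.6. By that rule 67.0% of the 11799 genes with a region were CpG-rich, against 8.0% of the 8086 single genes without one. Put the other way, 92.4% of CpG-rich and 34.4% of CpG-poor single promoters had a region. The SP1/KLF box GGGCGG was found in 65.1% of promoters with a region and in 15.9% of those without, with 45.1% over all single promoters. The ETS motif CCGGAAG was found in 15.1% against 2.63% (10.1% over all). The TATA box TATAAA went the other way, with 6.91% against 21.2% (12.7% over all), and so did the AP-1 motif TGANTCA, with 4.64% against 10.1% (6.84% over all). CCAAT hardly separated them, at 36.9% against 40.1% (38.2% over all). The SP1/KLF box followed the CpG class, being present in 78.6% of CpG-rich and 37.8% of CpG-poor promoters with a region. These are descriptions of annotated sequence with no replicate error.

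The height of a region in a library was taken as its rank. Each region got the −log10 p of the strongest overlapping interval in that library's full list, and regions were ranked from 1 (strongest) to 73725, with regions that had no interval sharing the last rank. The rank percentile runs from 0 to 100, with 100 the strongest. Ranks compare the order of regions within a library and say nothing of absolute accessibility. The strongest single coding promoter was a 408 bp region 94 bp from the TSS of Gm20594, a predicted gene on chromosome 6, which ranked 1 in 7 libraries and 2 in 96 h replicate 1. Ski, a proto-oncogene that restrains TGF-β signalling, ranked between 1 and 51, Gna11 (a G protein α subunit) between 6 and 58, Yipf6 (a Golgi membrane protein) between 5 and 143 and Ccna2 (cyclin A2) between 12 and 43. The weakest rank of Ski, Gna11 and Yipf6 was in 72 h replicate 2.

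Levels in undamaged liver differed by gene function. At 0 h the median rank percentile of the promoters of mitosis and cytokinesis genes was 88.0 and 87.1 (replicates 1 and 2, here and below joined by a slash), that of G1 regulators 87.6 and 91.5, that of translation factors 87.0 and 88.3 and that of mitochondrial ribosomal proteins 86.8 and 89.2. Lists of genes that the adult liver uses stood at different levels. Plasma proteins had 63.6 and 68.8, cytochrome P450 enzymes 53.6 and 63.6 and amino acid and urea metabolism 72.3 and 76.6, while sterol and fatty acid synthesis (81.5 and 82.8), glucose metabolism (81.4 and 81.6) and fatty acid oxidation (82.5 and 84.7) stood near the median of all 11799 genes with a region, 83.6 and 84.2. Developmental factors and ligands stood lowest of the lists with at least 20 genes, at 49.3 and 44.98. Only 5.26% of the 76 plasma protein genes with a region had a CpG-rich promoter, against 83.0% of the 47 mitosis genes and 61.1% of the 95 developmental genes. Of 1133 olfactory receptor genes 14 had a region.

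The first question was whether single coding promoters as a class kept their place after PHx. The median rank percentile was 79.4/80.0 (0 h), 77.1/77.9 (48 h), 76.4/76.3 (72 h) and 76.8/79.9 (96 h) (replicates 1 and 2). The 2 libraries at 48 h and the 2 at 72 h stood below both 0 h libraries, and the 96 h libraries were further apart from each other than the 0 h and 48 h means. The 59145 other regions moved little, between 43.3 and 44.4, and the 1157 head-to-head promoters went from 85.1/86.7 (0 h) to 81.0/81.0 (48 h) and 82.1/86.5 (96 h). With 2 libraries per group an exact permutation test cannot reach the threshold, and none was made. No read counts were given, and the lists differed in strength: the −log10 p of the last kept interval was 15.2/9.96 (0 h), 8.05/8.62 (48 h), 14.8/14.0 (72 h) and 14.5/8.29 (96 h), and its part in the shift was not tested. When fold enrichment was ranked in place of −log10 p, the median was 71.4 at 0 h and 71.7 at 48 h, so that the 48 h shift was not seen, while 72 h stayed lowest at 68.7. Percentiles within the full lists, which differ in length, were 87.0, 86.9, 88.1 and 88.2 at the 4 time points, while the median rank differences in the full lists were −0.13, −0.18 and −0.08 at 48, 72 and 96 h, on the lower side as in the consensus ranks.

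**Figure D2:**
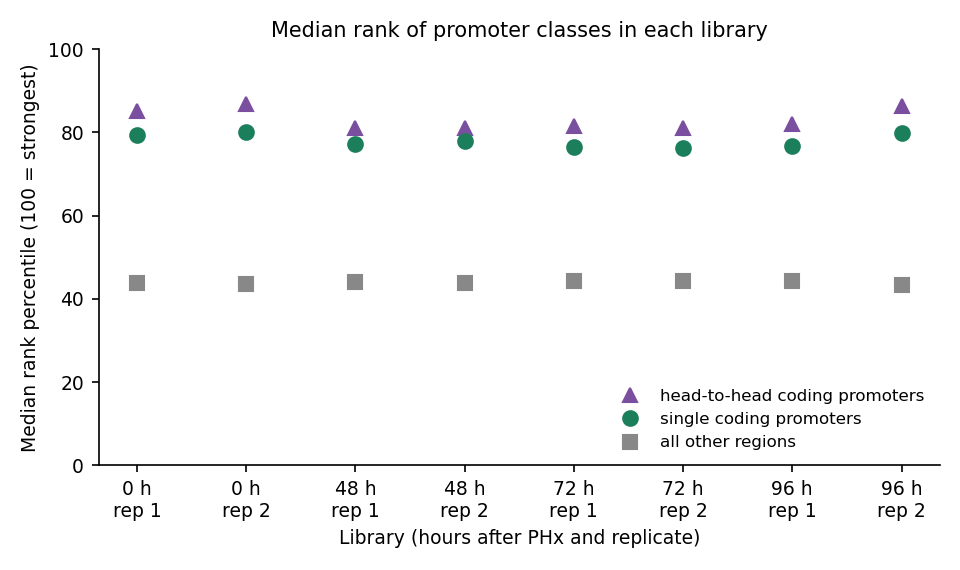
Median rank percentile (y axis, 100 = strongest region of the library) of head-to-head coding promoters, single coding promoters and all other regions in each of the 8 libraries (x axis). Single coding promoters lie between 76.3 and 80.0 in every library and other regions between 43.3 and 44.4.

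For single regions, log2 ranks were fitted with limma over all 73725 regions, and the rank difference was set so that a positive value means nearer the top at the later time; 1 unit is a factor of 2 in rank. All values after PHx were compared with the same 2 libraries at 0 h. At 48 h 8 promoters rose (Benjamini-Hochberg adjusted p under 0.05), while 0.0529% of all regions were called higher, and 0 promoters were called lower against 0.00543% of all regions. At an unadjusted limma p under 0.05, 720 promoters were higher (5.36%, all regions 5.99%) and 898 lower (6.69%, all regions 5.23%). At 72 h 1 promoter rose (all regions 0.00543%) and 0 fell (all regions 0%), with 463 higher (3.45%, all regions 4.27%) and 757 lower (5.64%, all regions 3.75%) at an unadjusted limma p under 0.05. At 96 h limma called 0 promoters in either direction (all regions 0.00136% higher and 0% lower), with 277 higher (2.06%, all regions 3.21%) and 426 lower (3.17%, all regions 3.10%) at an unadjusted p under 0.05. The share of promoters called at 48 h was near that of all regions. Leaving out any 1 of the 8 libraries, including those outside the comparison, left 0 calls at 48 h and at 72 h, and the prior degrees of freedom that limma estimates for the variance then went from 125 to between 15.1 and 28.3. Ranking by fold enrichment or dropping the mean-variance trend also left 0 calls. Other settings gave more, with 33, 10 and 1 calls at 48, 72 and 96 h when all intervals were used and 22, 6 and 1 with a replicate block.

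Snph encodes syntaphilin, which anchors mitochondria to microtubules, and its promoter had the smallest p at 48 h. The region (chr2:151631549-151632685) ranked 13229/26798 (0 h), 795/1366 (48 h), 3061/2122 (72 h) and 3101/3860 (96 h). Every library after PHx ranked higher than both 0 h libraries. The rank difference at 48 h was 4.18 ± 0.78 (limma SE, 2 libraries per time point, adjusted p = 0.00729), and at 72 and 96 h it was 2.89 and 2.44 with no call. The deposited fold enrichment was 13.9/9.69 (0 h) and 17.1/17.96 (48 h).

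Filip1l, which encodes a filamin A interacting protein, had a promoter region (chr16:57548972-57549937) that ranked 11426/17480 (0 h), 622/1700 (48 h), 4919/1617 (72 h) and 4253/3578 (96 h). All libraries after PHx again ranked higher than both at 0 h. The difference at 48 h was 3.78 ± 0.79 (limma adjusted p = 0.0178). The promoter of 1700016H13Rik, a gene of no assigned role, went from 10232/18611 (0 h) to 1858/535 (48 h), a difference of 3.79 ± 0.78 (limma adjusted p = 0.0175).

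Satb1, a chromatin organiser best known from T cells, ranked 2364/8498 (0 h), 128/512 (48 h), 888/524 (72 h) and 1066/2571 (96 h). The groups at 0 and 48 h did not overlap, while 1 library at 96 h fell between the 0 h values. The difference at 48 h was 4.13 ± 0.88 (limma adjusted p = 0.0242). Its fold enrichment at 48 h, 22.6 and 18.4, overlapped that at 0 h, 20.6 and 16.0.

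Of the other 4 promoters called at 48 h, all started weak. Tbc1d1 (a Rab GTPase-activating protein of glucose transport) ranked 36572/53716 (0 h) and 3985/16019 (48 h), a difference of 2.47 ± 0.57. Lhx2, a LIM homeobox factor, ranked 40573/51818 (0 h) and 5259/15590 (48 h) at a region 102 bp from a TSS, a difference of 2.34 ± 0.54. A stronger region of Lhx2 at another start had overlapping ranks and a difference of −0.00 ± 0.57. Dlgap3 (a synaptic scaffold protein) went from 55880 and 58660 to 27071 and 6452, a difference of 2.12 ± 0.49. Nt5m (a mitochondrial nucleotidase) went from 65916 and the shared last rank 70144, given because 0 h replicate 2 had no interval there, to 10534 and 32574, a difference of 1.88 ± 0.43. The limma adjusted p was 0.0495 for each of these 4. Neither 0 h list kept an interval at Dlgap3 or Nt5m, and 1 did at Tbc1d1 and Lhx2. Dlgap3 and Nt5m therefore entered the set only through libraries after PHx where they were strong, which favours a higher rank there, and their calls are given as a description.

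Phlda3, a target of p53 that restrains Akt signalling, was the promoter called at 72 h. It ranked 20600/31356 (0 h), 6971/3054 (48 h), 2041/888 (72 h) and 775/4576 (96 h). All 6 libraries after PHx ranked higher than both 0 h libraries. The difference was 2.46 ± 0.78 at 48 h (limma adjusted p = 0.199), 4.24 ± 0.78 at 72 h (0.0222) and 3.75 ± 0.78 at 96 h (0.167). Fold enrichment was 10.1/8.39 (0 h) and 14.4/16.7 (72 h).

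Across the 4 time points the moderated F test of limma called 4 promoters, Phlda3, Snph, U2af2 and Spsb4, against 0.0380% of all regions. U2af2, the large subunit of the splicing factor that reads the 3′ splice site, was also the promoter called between 48 and 72 h. It ranked 126/391 (0 h), 65/93 (48 h), 844/4472 (72 h) and 137/1016 (96 h). The difference of 48 h over 72 h was 4.64 ± 0.90 (limma adjusted p = 0.0183), and the lowest rank was that of 72 h replicate 2, the list named in another way. Without that library the difference was 3.44 ± 1.16 with no call (limma adjusted p = 0.836), and without any other single library it was between 4.38 and 5.85, also with no call. All regions were called in 0.00543% (higher at 48 h) and 0% (lower) of cases in that comparison. Between 48 and 96 h 0 promoters were called, with 0.0271% of all regions higher and 0.00407% lower at 48 h, and 510 (3.799%, all regions 4.48%) and 512 promoters (3.81%, all regions 3.92%) had an unadjusted limma p under 0.05 in these directions.

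**Figure D3:**
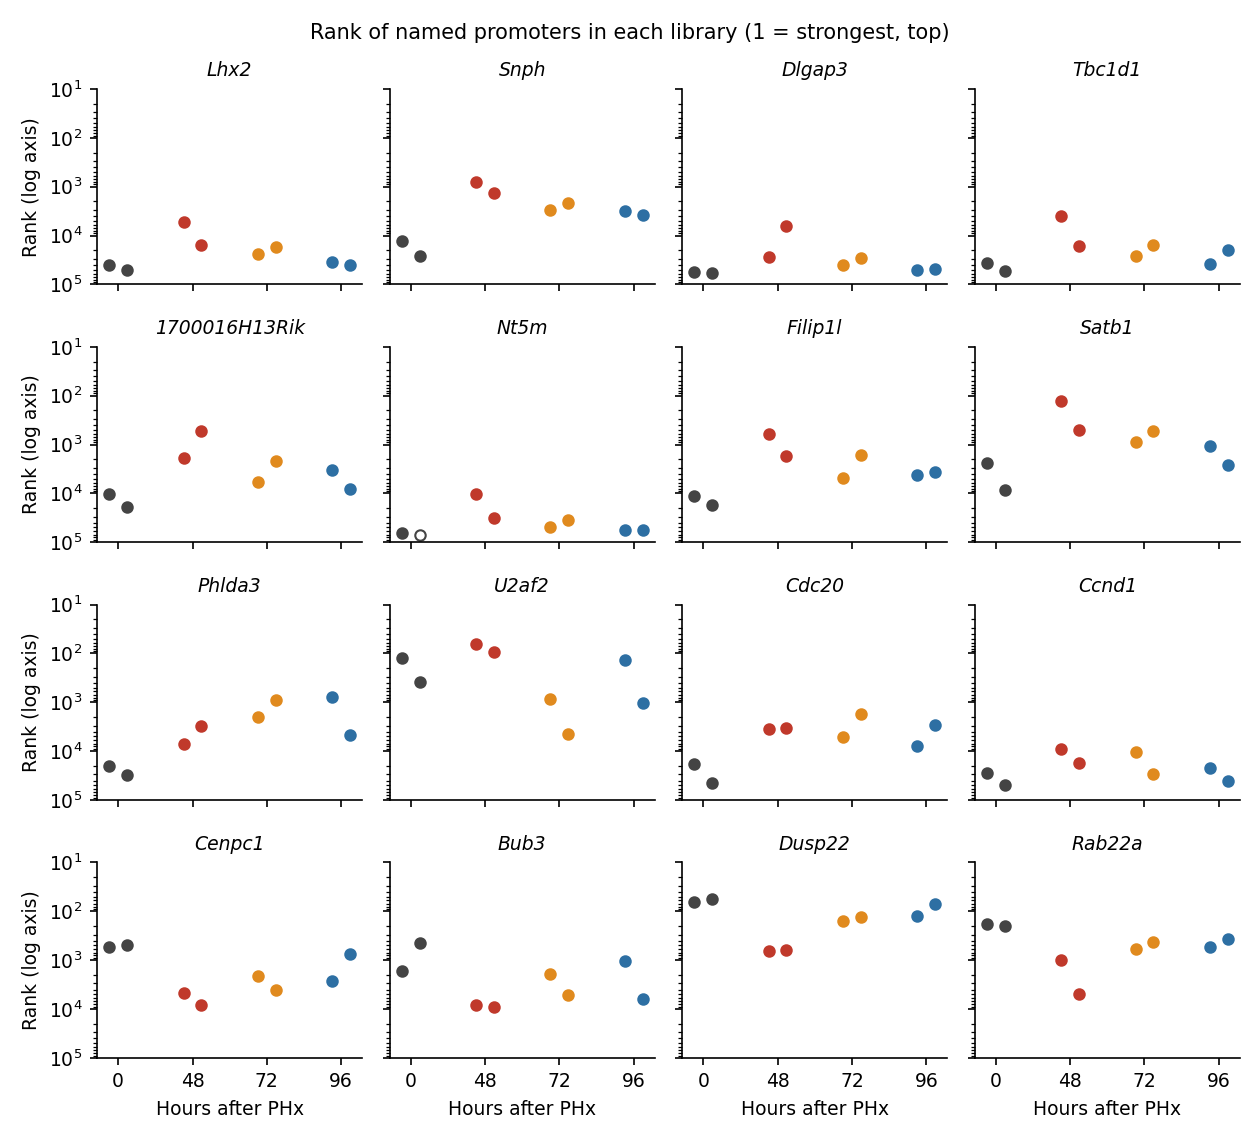
Rank of 16 promoter regions (y axis, log scale, 1 = strongest, top) in each of the 8 libraries by hours after PHx (x axis), where each point is 1 library and an open point has no interval and the shared last rank. The 8 promoters called at 48 h fill the first 2 rows, the next row holds Phlda3, U2af2, Cdc20 and Ccnd1, and the last row holds the 4 with the smallest p among those lower at 48 h.

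Of the genes of cell division, Cdc20 had a promoter that ranked 18530/45900 (0 h), 3524/3374 (48 h), 5240/1741 (72 h) and 7676/2970 (96 h). All libraries after PHx ranked higher, and the differences were 3.08 ± 0.73, 3.27 ± 0.73 and 2.61 ± 0.73, none of them called (limma adjusted p = 0.0637 at 48 h). Ccnd1, which encodes cyclin D1, ranked 27728/49456 (0 h), 9157/17738 (48 h), 10356/29135 (72 h) and 22165/40359 (96 h). Both 48 h libraries ranked higher than both at 0 h, while at 72 and 96 h 1 library of each pair did. The difference at 48 h was 1.54 ± 0.55 (limma adjusted p = 0.262). Mki67, the proliferation marker Ki-67, overlapped at every time, with a difference of 0.02 at 48 h.

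Rgcc, a regulator of the cell cycle, already ranked 62/498 (0 h). It reached 24/31 (48 h), 18/11 (72 h) and 18/41 (96 h), differences of 2.69, 3.64 and 2.69 that were not called. Tbx3, a T-box factor, ranked 1637/2563 (0 h), 332/665 (48 h), 712/241 (72 h) and 270/315 (96 h). Sfpq, a splicing and paraspeckle protein, ranked 12964/17402 (0 h) and 1593/2931 (96 h), a difference of 2.80. For all 3 genes the libraries after PHx lay above both 0 h libraries.

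Among promoters with a lower rank at 48 h, Cenpc1 ranked 541/501 (0 h), 4695/8309 (48 h), 2102/4048 (72 h) and 2724/751 (96 h). No library after PHx reached the 0 h ranks. The difference at 48 h was −3.58 ± 0.84 (limma adjusted p = 0.0573), and fold enrichment was 15.7/16.96 (0 h) and 9.27/8.01 (48 h). Bub3 ranked 1631/440 (0 h), 8446/9259 (48 h), 1917/5193 (72 h) and 1056/6303 (96 h), with a difference at 48 h of −3.38 ± 0.83 (limma adjusted p = 0.0731). Its 48 h libraries stood apart from the others, while 96 h overlapped 0 h.

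Dusp22 ranked 66/57 (0 h), 638/622 (48 h), 159/133 (72 h) and 123/71 (96 h). The 2 libraries of each time point stood close together, with a difference of −3.36 ± 0.84 at 48 h (limma adjusted p = 0.0779) and ranks near the 0 h level by 96 h. Rab22a, a Rab GTPase of endosomes, followed the same order, with ranks of 178/199 (0 h), 987/4841 (48 h) and 543/372 (96 h). Cenpu and Gtse1, with roles at the kinetochore and in G2 and M phase, had differences of −3.44 and −2.70 at 48 h. Wdr73, Snrnp48 and Itih1 had differences between −2.61 and −2.10. Cyp11b2 had one of −1.91 at a region 782 bp from its TSS. The nuclear receptor gene Nr5a2 had one of −1.75 at a region 358 bp from 1 of its starts. None of these was called.

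Since few promoters passed the test, gene functions were compared by a second, descriptive rule, which counts a promoter when both libraries of a time point rank higher, or both lower, than both 0 h libraries. By it 19.4% of the single coding promoters were higher and 26.4% lower at 48 h, against 21.0% and 22.2% of all regions. At 72 h the shares were 16.7% and 30.2%, against 20.5% and 22.5% of all regions, and at 96 h 14.9% and 20.03%, against 17.1% and 18.7%. Promoters were thus lower more often than all regions at 48 and 72 h, but when all intervals were used in place of the 50000 strongest, 37.2% of 21832 promoters were lower at 72 h against 48.9% of all regions. Head-to-head promoters did so further, with 36.3% lower at 48 h and 39.7% at 72 h. Counted over the 11799 genes by their strongest region, 18.7% were higher and 27.1% lower at 48 h, with a median rank difference of −0.12. At 72 h 16.6% of the genes were higher and 30.3% lower (median −0.17), and at 96 h 15.1% and 19.4% (median −0.05). The lower share thus fell from 72 to 96 h over all genes. Over the regions the medians were −0.09, −0.15 and −0.05, but 0.03, −0.09 and 0.02 with fold enrichment ranked. The first was −0.049 without 0 h replicate 2, and the last −0.0095 without 96 h replicate 1 and −0.13 when replicate 2 was left out in its place. Gene lists are set against these values, and no list was tested. A region entered the set through any 1 list, so that a gene weak at 0 h could enter only through a library where it is strong: 7.06% of the genes were kept in no 0 h list and 0.703% in 0 h lists only. With ranks taken among promoters alone, the 48 h medians of the 22 lists with at least 20 genes were nearer 0, between −0.22 and 0.18.

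Plasma protein genes, which encode albumin, transport proteins, clotting factors, complement and protease inhibitors, mostly ranked lower after PHx. Of 76 genes with a region 3 were higher and 40 lower at 48 h, with 5 and 41 at 72 h, then 3 and 36 at 96 h, and the median rank difference was −0.47, −0.44 and −0.41. Of the 76 genes 6 were kept in 0 h lists only (7.89%, against 0.703% of all genes), and 4 of these were among the 40 counted as lower at 48 h, which the way they entered favours. The sign held under all the alternatives run, but with ranks taken among promoters alone the values were −0.19, −0.15 and −0.14, and with fold enrichment ranked −0.10, −0.17 and −0.09. Itih1 ranked 11401/7748 (0 h), 36043/44854 (48 h), 17172/27390 (72 h) and 14852/37745 (96 h), a difference of −2.10 ± 0.56 at 48 h (limma adjusted p = 0.0946). Every library after PHx ranked lower than both 0 h libraries. Hpx (hemopexin) had a difference of −1.92 ± 0.63 at 48 h, Hp (haptoglobin) one of −1.03 ± 0.47 and F5 (clotting factor V), the other way, one of 0.74 ± 0.66.

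The Alb promoter was weak in these lists. It ranked 34636/50924 (0 h) and 56137 in 96 h replicate 1, and the other 5 libraries had no interval over the 248 bp region and took the shared last rank, between 69750 and 72523. Its differences, −0.74 ± 0.27, −0.79 ± 0.27 and −0.58 ± 0.27, therefore depend on that shared rank. Over the 13 hepatocyte markers 0 were higher and 11 lower at 48 h, with 0 and 10 at 72 h, then 0 and 9 at 96 h, with medians of −0.74, −0.72 and −0.44. Alb, Ttr, Apob, Tat and Trf were among the markers with no interval in 48 h replicate 1, and Alb and Tat also had none in 48 h replicate 2. Hnf4a, the master factor of hepatocyte identity, ranked 2490/1917 (0 h) and 5423/3409 (48 h), a difference of −0.98 ± 0.79. Cyp2e1 ranked 49980/38272 (0 h) and 64991/60108 (48 h). Alb and Cyp2e1 were kept in 1 list each, at 0 h, so that the way they entered favours a lower rank later, and they are 2 of the 11 markers counted as lower.

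Of the metabolic lists and hepatocyte regulators, most were lower more often than the 27.1% of all genes at 48 h. Hepatocyte transcription factors had 5 of 31 higher and 12 lower at 48 h (median −0.26), circadian clock genes 2 of 23 and 9 (−0.34) and amino acid and urea metabolism 6 of 44 and 12, 27.3% and so near all genes (−0.22), but with fold enrichment ranked these medians were 0.02, 0.00 and 0.11. Leaving out 0 h replicate 1 gave −0.47 for the first of them and −0.43 for the last, and leaving out 0 h replicate 2 gave −0.032 for the first. Cytochrome P450 genes had 2 of 49 higher and 20 lower at 48 h (median −0.30, but −0.19 with fold enrichment ranked), although their 8 CpG-rich promoters had a median of 0.28. Of the 20 lower P450 genes 6 were kept in 0 h lists only. Conjugating enzymes had 5 of 43 higher and 16 lower (median −0.31, but −0.15 without 48 h replicate 1). Of the 5 higher conjugating enzyme genes 3 were kept in no 0 h list, and of the 16 lower 1 in 0 h lists only, which the way they entered favours. Sterol and fatty acid synthesis had 1 of 38 higher and 20 lower at 48 h (median −0.48, but 0.01 with fold enrichment ranked), with 2 and 18 at 72 h, then 3 and 7 at 96 h. The lower share at 96 h, 18.4%, was near the 19.4% of all genes. Its 96 h median, −0.12, became −0.78 when 96 h replicate 2 was left out and 0.39 when replicate 1 was. Lss (lanosterol synthase) ranked 1677/1977 (0 h), 7362/7589 (48 h), 3552/13698 (72 h) and 17414/1870 (96 h), so that its 96 h libraries fell on both sides. Fatty acid oxidation and ketogenesis had 4 of 34 higher and 15 lower at 48 h (median −0.44), but the median was −0.12 with fold enrichment ranked, −0.15 when 48 h replicate 1 was left out and −0.16 when 0 h replicate 2 was. Glucose metabolism had 5 of 39 higher and 16 lower (median −0.20, but 0.07 with fold enrichment ranked, −0.33 when 0 h replicate 1 was left out and −0.37 when 48 h replicate 2 was).

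Mitosis and cytokinesis genes had 1 of 47 higher and 21 lower at 48 h, with 3 and 27 at 72 h, then 3 and 12 at 96 h, with medians of −0.58, −0.67 and −0.40. The 96 h value rests on 1 library, being 0.12 without 96 h replicate 1. DNA replication genes had 2 of 46 higher and 21 lower at 48 h (median −0.47) and 2 and 21 at 72 h (−0.56, but −0.34 without 0 h replicate 2). Pcna ranked 4017/6084 (0 h), 19591/26450 (48 h), 11096/22874 (72 h) and 18271/5186 (96 h), a difference of −2.20 ± 0.65 at 48 h (limma adjusted p = 0.15). Both 48 h and both 72 h libraries lay below the 0 h range, and 96 h overlapped it.

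Translation factors had 0 of 45 higher and 22 lower at 48 h, with a median of −0.46, but −0.22 with fold enrichment ranked. Their example Eif2ak4 (the amino acid sensing kinase GCN2) ranked 277/144 (0 h) and 1049/2254 (48 h), a difference of −2.94 ± 0.92. Cytosolic ribosomal proteins had 2 of 65 higher and 23 lower at 48 h, and 2 and 37 at 72 h, with medians of −0.43, −0.70 and −0.37 at 48, 72 and 96 h, but −0.27, −0.40 and −0.070 with fold enrichment ranked. Without 0 h replicate 1 the 48 h median was −0.81, and without 0 h replicate 2 the 72 h median was −0.42. The 96 h median ranged from −0.63 (0 h replicate 1 left out) to −0.19 (0 h replicate 2 left out), and leaving out 96 h replicate 2 gave −0.59. Splicing factors had 3 of 56 higher and 24 lower at 48 h (median −0.37, but −0.19 with fold enrichment ranked and 0.26 over the CpG-poor ones). Mitochondrial ribosomal proteins had 4 of 53 higher and 17 lower (median −0.33, but −0.54 without 0 h replicate 1), oxidative phosphorylation 7 of 57 and 11 (−0.14, but −0.066 with fold enrichment ranked and 0.05 without 0 h replicate 2) and the proteasome 3 of 37 and 10 (−0.21). The lower shares of these last lists, 19.3% and 27.0%, did not exceed the 27.1% of all genes. That of mitochondrial ribosomal proteins was 32.1%. CpG-rich promoters of the strong and middle classes by mean rank, defined further on, had 30.1% and 33.4%. For the proteasome, leaving out 48 h replicate 1 gave −0.025, leaving out 0 h replicate 2 gave −0.052, leaving out 0 h replicate 1 gave −0.35 and ranking fold enrichment gave −0.11. G1 regulators were near the background, with 6 of 38 higher and 12 lower at 48 h (median −0.08, and 0.06 with fold enrichment ranked). Their median was −0.28 when 48 h replicate 2 was left out, −0.029 when replicate 1 was and −0.17 when 0 h replicate 1 was.

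Genes of the unfolded protein response, which refold or clear misfolded secretory proteins, had medians below 0 at 48 and 72 h that were nearer 0 with fold enrichment ranked, and their 96 h value rests on 1 library. Of 24 genes 1 was higher and 10 lower at 48 h, with 2 and 13 at 72 h, then 3 and 2 at 96 h, with medians of −0.54, −0.59 and 0.13. With fold enrichment ranked the 48 and 72 h medians were −0.050 and −0.12, and without 0 h replicate 2 they were −0.35 and −0.27. The 96 h value became −0.55 when 96 h replicate 2 was left out and 0.85 when replicate 1 was. Hspa5 ranked 22030/19743 (0 h), 50178/47956 (48 h), 28000/40478 (72 h) and 18069/11564 (96 h). Its 96 h libraries ranked higher than both at 0 h, with differences of −1.23 ± 0.51 at 48 h and 0.53 ± 0.51 at 96 h that were not called.

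Of the 22 lists with at least 20 genes, developmental factors and ligands alone had a median above 0 at 48 h, while with fold enrichment ranked 6 of the others also did. The 182 genes were taken by symbol prefix (Hox, Sox, Pax, Wnt, Lhx, Nkx, Dlx, Irx, Tbx, Gli, Fgf, Bmp, Gata and the sine oculis homeobox genes), and 95 had a region. Of these 44 were higher and 6 lower at 48 h, with 29 and 12 at 72 h, then 17 and 9 at 96 h, with medians of 0.39, 0.14 and 0.04. At 48 h the share higher was 46.3%, against 18.7% of all genes with a region and 25.01% of CpG-rich promoters in the weak class by mean rank defined further on. The 48 h median stayed positive under all the alternatives run, while the 72 h value was −0.01 over its CpG-poor promoters and 0.027 without 72 h replicate 2, and the 96 h value −0.03 without 0 h replicate 2. None of the 95 was called at any time by limma, where Lhx2 is counted by its stronger region, and 14 were higher and 1 lower at 48 h at an unadjusted p under 0.05, where all regions had 5.99% and 5.23%. Of the 95 genes 24 were kept in no 0 h list (25.3%, against 7.06% of all genes), and 17 of these were among the 44 counted as higher, a count that the way they entered favours.

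Nkx2-4 ranked 48022/45121 (0 h), 20766/17204 (48 h), 26860/40225 (72 h) and 51593/27803 (96 h), a difference of 1.3 ± 0.48 at 48 h. Tbx18 ranked 21965/23136 (0 h) and 4081/11459 (48 h), a difference of 1.72 ± 0.65, and its 96 h ranks of 18080 and 5334 were still above both at 0 h, while those of Nkx2-4 overlapped 0 h. Wnt9a and Lhx3 went the other way, with differences of −1.45 ± 0.75 and −1.42 ± 0.61. Beside this list, the few promoters of other liver cell types moved as follows at 48 h. Of 4 endothelial marker genes with a region (Kdr, Tie1, Clec4g and Egfl7) 2 were higher and 0 lower, of 4 stellate (Lrat, Reln, Col1a1 and Hand2) 3 and 0, of 5 cholangiocyte 0 and 1, and the 1 macrophage gene, C1qc, was higher, with no interval in 0 h replicate 2 and a region 963 bp from the TSS. C1qc, Hand2, Kdr and the cholangiocyte gene Cldn4 were kept in no 0 h list. The 1 lower cholangiocyte gene, Spp1, was kept in 0 h lists only, so that the way it entered favours a lower rank later. Over the whole marker lists, intervals were present at Cdh5 (6 libraries), Erg (7), Cd68 (8), Col1a2 (6), Des (5) and Krt7 (5) among others, and absent in every library at Stab2, Lyve1, Csf1r, Ptprc, Acta2, Col3a1 and Krt19 among others. The part of other cell types in the developmental values was not tested.

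**Figure D4:**
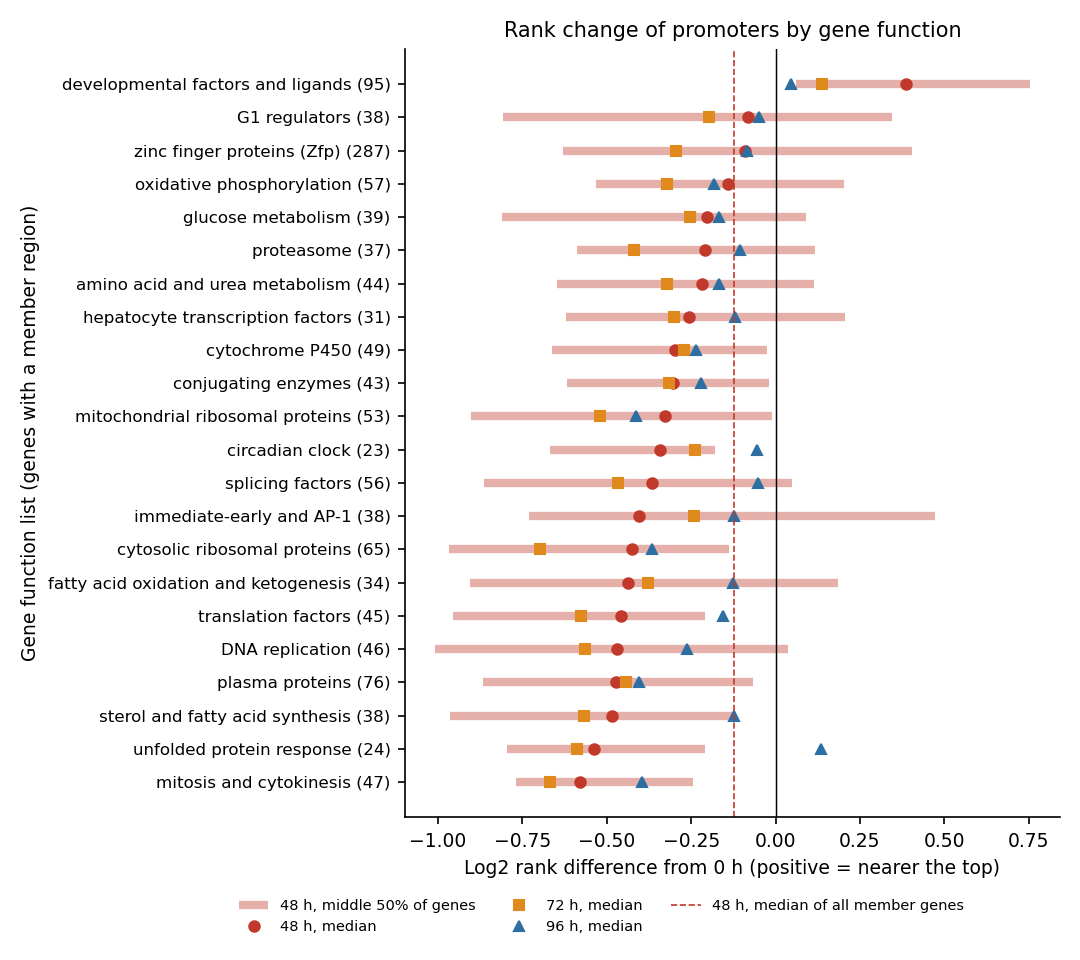
Median log2 rank difference from 0 h (x axis, positive means nearer the top) of the promoters in each of 22 gene function lists (y axis, number of genes with a region in brackets) at 48, 72 and 96 h, with a bar over the middle 50% of genes at 48 h. At 48 h 21 lists have a median below 0 (6 of these are above 0 with fold enrichment ranked), and developmental factors and ligands are at 0.39. The dashed line is the 48 h median of all genes with a region.

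Zinc finger genes of the Zfp family had their lowest median at 72 h, as all genes did. Of 287 genes 48 were higher and 70 lower at 48 h (16.7% and 24.4%, against 18.7% and 27.1% of all genes), with a median of −0.09, and 0.01 with ranks taken among promoters alone. At 72 h 22 were higher and 104 lower (7.67% and 36.2%, against 16.6% and 30.3%), with a median of −0.30, but −0.13 with fold enrichment ranked and −0.074 with ranks among promoters alone. At 96 h 36 were higher and 58 lower (12.5% and 20.2%, against 15.1% and 19.4%), with a median of −0.08, and 0.01 with fold enrichment ranked. Leaving out 0 h replicate 1 or 2 moved the 48 h median to −0.18 or −0.032, and leaving out 96 h replicate 1 or 2 moved the 96 h median to 0.0072 or −0.27. Immediate-early and AP-1 genes were spread widely at 48 h, with 10 of 38 higher and 14 lower (median −0.41, but −0.10 without 0 h replicate 2 and −0.02 with fold enrichment ranked). Their median was −0.66 when all intervals were used and −0.64 with ranks within the full lists. Jun, whose region lay 978 bp from the TSS, ranked 766/1219 (0 h) and 492/82 (48 h), a difference of 2.27 ± 0.92 (limma adjusted p = 0.325).

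At 48 h, in ranks by −log10 p, the leaning to lower ranks was larger in CpG-rich promoters of high and middle level. Over all single coding promoter regions the 48 h median was −0.09, but 0.03 with fold enrichment ranked. Without 0 h replicate 2 it was −0.049. The CpG classes are given only for ranks by −log10 p with all 8 libraries. Of the 7903 CpG-rich genes 17.2% were higher and 29.3% lower at 48 h (median −0.19), and of the 3896 CpG-poor genes 21.9% and 22.8% (median −0.00). Genes were divided into 3 equal classes, strong, middle and weak, by mean rank over all 8 libraries. In the strong class 30.1% of CpG-rich and 22.5% of CpG-poor genes were lower at 48 h, in the middle class 33.4% and 25.5%, and in the weak class 22.2% and 21.3%. The plasma protein list did not follow the class, since its 72 CpG-poor promoters had 3 higher and 37 lower at 48 h.

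**Figure D5:**
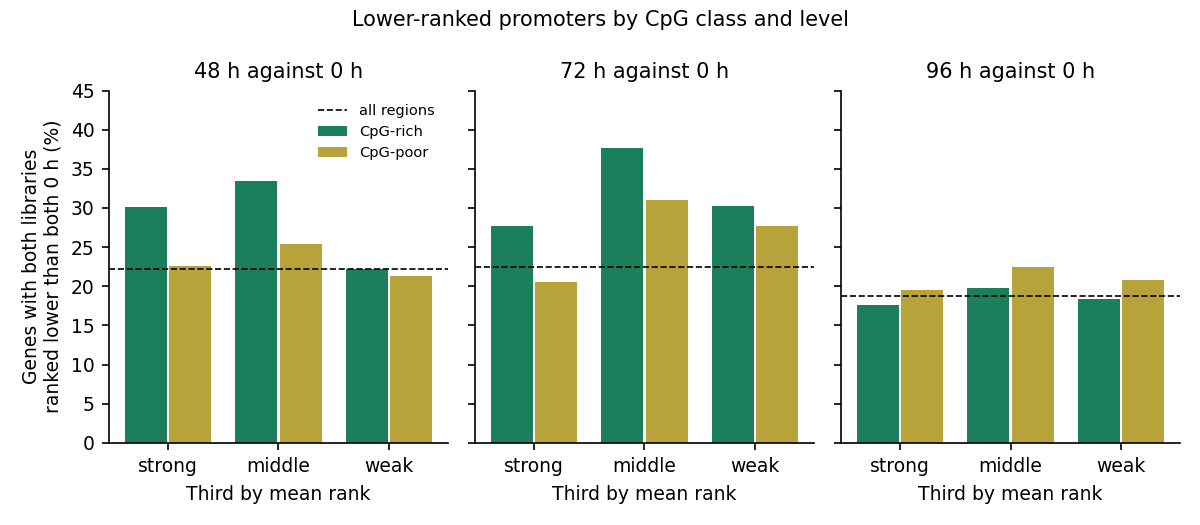
Share of genes with both libraries of the time point ranked lower than both 0 h libraries (y axis, percent) for CpG-rich and CpG-poor promoters in 3 equal classes by mean rank (x axis), at 48, 72 and 96 h. Ranks are by −log10 p only. The dashed line is the share of all consensus regions (22.2%, 22.5% and 18.7%), and the tallest bars are CpG-rich promoters of the middle class at 48 h (33.4%) and 72 h (37.7%).

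Motif classes were described in the same way, for ranks by −log10 p only, with no test and with motifs that overlap in their genes. Those described below were picked from a longer list of motifs searched, where only CTCF had a median above 0 at 48 h. At 72 h the lower share was below the 30.3% of all genes only for AP-1, FOXA, C/EBP and CTCF. It was 41.2% for NRF1, 41.0% for E2F and 39.9% for YY1. Promoters with an ETS motif (1786 genes) were 11.1% higher and 33.5% lower at 48 h, and those with CCAAT (4348 genes) 14.6% and 32.9%. The ETS motif was found in 18.8% of CpG-rich and 7.62% of CpG-poor promoters with a region. Of all CpG-rich genes 29.3% were lower at 48 h. The motif of ZBTB33, a factor that binds methylated CpG, was found in 95 genes, of which 0% were higher and 54.7% lower at 72 h, against 16.6% and 30.3% of all genes, with a median of −0.72. At 48 h the same genes were 8.42% higher and 35.8% lower (median −0.36), and at 96 h 7.37% and 28.4% (−0.21). Promoters with the CTCF motif (190 genes) leaned the other way, with 23.7% higher and 18.9% lower at 48 h (all genes 18.7% and 27.1%), 20.5% and 7.89% at 96 h (all genes 15.1% and 19.4%), and a median of 0.17 at 48 h. Over all single promoters of the annotation these motifs were found in 0.523% (ZBTB33) and 1.08% (CTCF).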

How the data were processed

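ATAC-Seq peak lists of 8 hepatocyte libraries were used, 2 per time point (undamaged liver at 0 h, and 48, 72 or 96 h from PHx). Per the study's methods the authors aligned reads to mm10 with Bowtie2, removed duplicates and called peaks per library with MACS2 through the ENCODE pipeline. The deposited lists hold a fold enrichment ratio, −log10 p, −log10 q and a display score per interval. No read counts were in the lists, so the depth is unknown, no counting interval was given, and the number of libraries limits the precision. The study's text describes more replicates at 0 and 48 h than the 2 used here; others were not analysed here.

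Intervals repeated for several summits were collapsed, the 50000 with the highest −log10 p were kept per library, and kept intervals were merged (overlap of at least 1 bp). Promoters were assigned from the GENCODE basic annotation on GRCm38, with a 1 kb distance to the TSS and for head-to-head pairs. Ranks were fitted on the log2 scale with limma 3.58.1 in R 4.3.3, with a mean-variance trend, over all regions and 4 time groups, with Benjamini-Hochberg adjustment over all regions and a threshold of 0.05. The fit was run on simulated ranks in which 200 regions of middle rank were shifted at 48 h. It recovered 0%, 22.5% and 95.0% of shifts of 1, 2 and 3 log2 units, the last with 9 false calls. Small shifts would therefore be missed. The simulated spread depended on rank level alone, so the simulation cannot tell whether the calls hold where regions of like rank differ in spread. Other steps used Python 3.11.15, numpy 2.4.6, pandas 2.3.3 and scipy 1.17.1, and figures used matplotlib 3.10.9.

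Named promoters were those called, the 10 with the smallest p in each direction at 48 h and the 5 at 72 and 96 h, the 5 strongest, the 2 genes of each list with the smallest p in each direction at 48 h, and fixed examples, most with an interval in all 8 lists; Nt5m, Hp, Tat and the marker genes were added after their values were seen. The promoters and gene lists were chosen with earlier results of these data known. Motifs were searched on both strands from 250 bp upstream to 50 bp downstream of the TSS. Alternatives were another rank scale or column, other numbers of intervals, distances and head-to-head rules, no trend, a replicate block and leaving out each library. Some genes and sequences are not reported here.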

Additional observations from a re-analysis of the deposited data

Results flagged for a closer look

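The U2af2 promoter differed between time points after PHx. Its log2 rank difference between 48 and 72 h was 4.64 ± 0.90 by limma (adjusted p = 0.0183), with both 48 h libraries ranked higher than both 72 h libraries. Without 72 h replicate 2, whose list is named in another way than the other 7, the difference was 3.44 ± 1.16 (limma adjusted p = 0.836). The cause was not tested.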

How the results depend on the processing

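The fit as reported called 8, 1 and 0 promoters at 48, 72 and 96 h, 4 across time points and 1 between times after PHx. All of these counts were 0 with percentiles in place of log2 ranks, ranks among promoters alone, fold enrichment ranked or no variance trend, and 0 to 0 when 1 library was left out, and in these settings the prior degrees of freedom that limma estimated lay between 4.04 and 28.3, against 54.6 or more in every setting with a call. Ranks within the full list gave 5 calls at 48 h and 2 across time points; 25000 intervals gave 4 at 48 h and 2 at 72 h; all intervals gave 33, 10 and 1 at 48, 72 and 96 h, 33 across time points and 14 between times, and 8125 and 7260 of its 21832 promoters lower than both 0 h libraries at 72 and 96 h (37.2% and 33.3%, against 48.9% and 50.5% of its 315767 regions). Replicate numbers did not pair the libraries (correlations of deviations from -0.063 to 0.109 over all regions and from -0.088 to 0.133 over promoters); with a replicate block there were 22, 6 and 1 calls, 22 across time points and 5 between times. The median percentile at 0, 48, 72 and 96 h was 87.0, 86.9, 88.1 and 88.2 within the full list, 71.4, 71.7, 68.7 and 71.5 with fold enrichment, 74.7, 71.2, 70.3 and 73.2 with 25000 intervals and 86.3, 86.5, 85.7 and 86.0 with all intervals. Among promoters alone the medians were -0.19, -0.15 and -0.14 for plasma proteins, -0.21 and -0.32 for mitosis at 48 and 72 h, -0.33 for cytosolic ribosomal proteins at 72 h and 0.18 for developmental genes at 48 h. With fold enrichment they were -0.10, -0.17 and -0.086 for plasma proteins, -0.40 and -0.070 for cytosolic ribosomal proteins at 72 and 96 h and 0.0013 for developmental genes at 72 h, which had 0.53 at 48 h with all intervals and -0.0056 at 72 h over CpG-poor promoters. With 1 library left out, cytosolic ribosomal proteins ranged from -0.81 to -0.32 at 48 h and mitosis from -0.66 to 0.12 at 96 h. The cause was not tested. Counts without overlap need both libraries and were not recomputed with 1 left out. Of 3121 alternative values for 149 named promoter values, 22 changed sign, and of 1227 for 69 list values 60 did. Depth is unknown, so absence of an interval is not absence of open chromatin.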
